A study of Mus musculus with 6 samples.

Results

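Adipokines are hormones that adipose tissue releases into the blood, and their transcripts were followed here in the inguinal fat pad, the white adipose tissue under the skin of the groin, in mice. The 10 genes were chosen by symbol as named adipose hormones, Adipoq, Lep, Retn, Retnla, Rbp4, Nampt, Apln, Angptl4, Rarres2 and Nrg4, and all 10 were found among the 24984 genes of the count files. Bulk RNA sequencing compared 3 wild-type libraries (WT) with 3 Mpst knockout libraries (KO), all from mice on a high-fat diet (HFD). MPST is a sulfurtransferase of mitochondria and cytosol that forms hydrogen sulfide from a breakdown product of cysteine. The sources used here do not give strain, age, sex, time on the diet, the design of the Mpst allele or the cells in which it acts. The labels do not say that replicates are separate animals, so p-values cover only how far these samples spread, and that spread may be technical.

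Adipokines differ in their source and their target. Adiponectin, leptin and, in mice, resistin come mainly from fat cells, while others, such as the resistin-like molecule encoded by Retnla, are also made by macrophages. Several act through known receptors or partners. Leptin acts on the hypothalamus to limit feeding, and adiponectin on liver and muscle to raise insulin sensitivity. ANGPTL4 acts on lipoprotein lipase to limit the uptake of fat from blood. In bulk tissue, fewer cells of a type and less RNA per cell cannot be told apart.

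Library depth ran from 8054560 to 22458630 counts in genes, with the lowest depth in KO replicate 1. Mpst checked the labels, at 83.2, 84.7 and 75.4 CPM (counts scaled to the normalised library size) in WT replicates 1, 2 and 3 and at 0.358, 0.440 and 0.382 CPM in KO replicates 1, 2 and 3. Adipocyte markers were high in every library, with a sum of 46592 to 66845 CPM over 13 genes. Skeletal muscle markers were uneven, with a sum of 1148 CPM in WT replicate 2 and 2608 CPM in KO replicate 3 against 111 to 262 CPM in the other libraries. Mammary and epithelial markers summed to 0.604 to 1.36 CPM over 10 genes, and Krt14, Csn2, Csn3 and Wap were listed at 0 in all 6 libraries. WT replicate 3 was the lowest WT library for 7 members and the highest for 2, and the share of all genes with such a place is not given here. This library stood apart over genes at large. Its median squared difference, relative to sampling variance, was 23.1 from WT replicate 1 and 19.9 from WT replicate 2. Between WT replicates 1 and 2 that value was 5.58, each over genes with at least 50 counts in the pair.

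With all 6 libraries, resistin and neuregulin 4 transcripts were called lower in the knockout, and no adipokine was called higher. Each of these calls was kept in only 2 of the 6 fits without 1 library, and Nampt was called higher without WT replicate 3. Retn was 1.98-fold lower and Nrg4 1.44-fold lower. In edgeR's quasi-likelihood test, adjusted over all genes tested, 2 of the 10 members were called lower and 0 higher at an adjusted p under 0.05. Of the 14065 genes tested, 2.65% were called lower, 4.76% higher and 7.41% in either direction, and 27.6% had an unadjusted p under 0.05. Of the members, 3 had an unadjusted p under 0.05 (Retn, Nrg4 and Retnla, each lower), and DESeq2 also called 2 lower and 0 higher. Of all calls 64.2% were higher, against 54.0% with DESeq2 and 97.7% with libraries scaled on adipocyte markers. The libraries of the groups did not overlap for 3 members (Adipoq, Retn and Nrg4), against 33.3% of all tested genes. Among the members 6 log2 fold changes lay below 0 and 4 above, with a median of −0.24, beside a median of 0.0052 over all tested genes. The sign of Angptl4, which stood at the same level in both groups, flipped under other scalings, and those of Adipoq and Rarres2 flipped when libraries were scaled on adipocyte markers. No member was lost to the filter on low counts, the lowest raw count being 484.

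**Figure D1:**
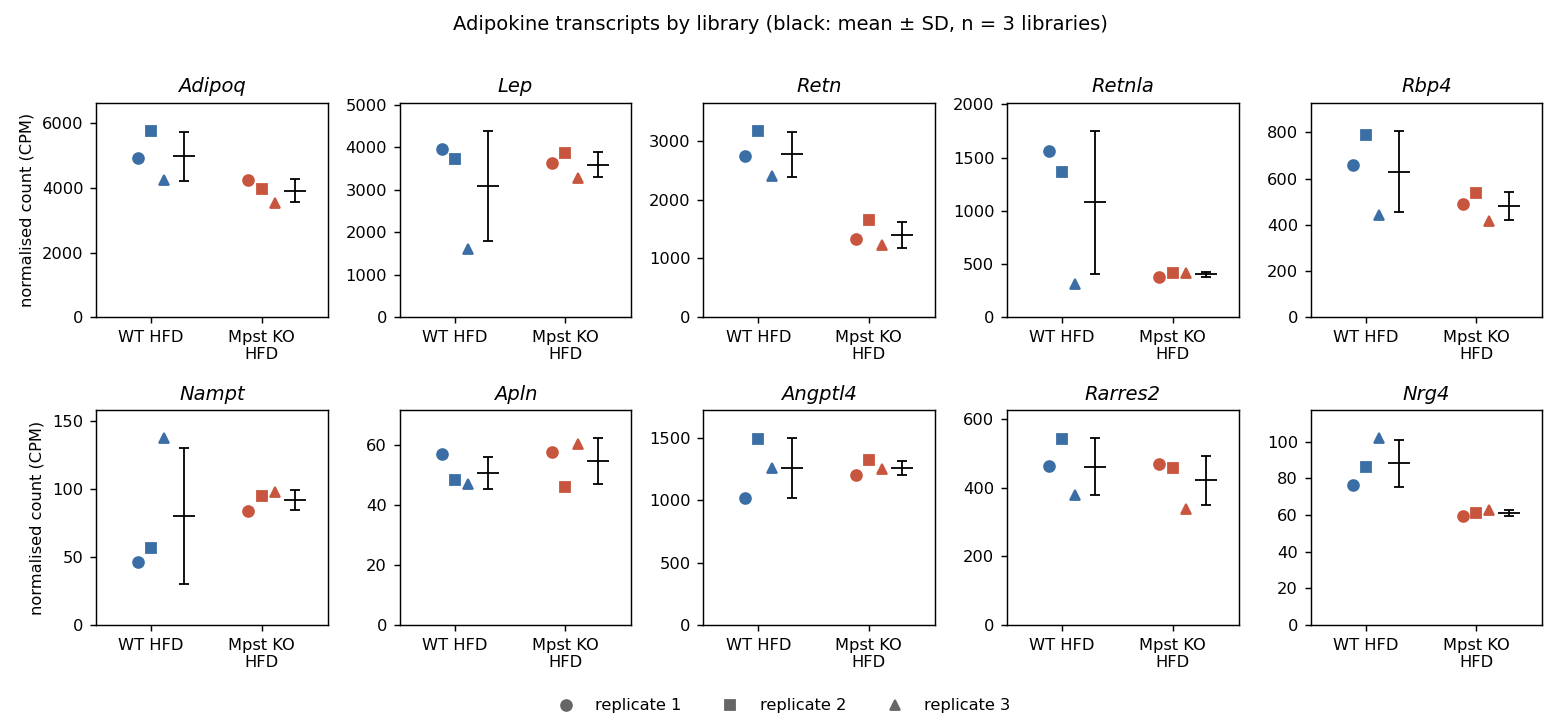
Normalised counts (CPM, linear axis from 0) of the 10 adipokine transcripts in each of 3 WT and 3 KO libraries, with the shape of a point giving the replicate and black bars the mean ± SD. Retn and Nrg4 lie lower in all 3 KO libraries, and WT replicate 3 (blue triangle) lies far from the other WT libraries for Lep, Retnla and Nampt.

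Retn encodes resistin, a cysteine-rich hormone that in mice is made by fat cells and opposes the action of insulin. On GRCm38 the gene spans bases 3655770 to 3660110 of chromosome 8, plus strand. Its level was 2734, 3165 and 2403 CPM in WT replicates 1, 2 and 3 and 1329, 1649 and 1222 CPM in KO replicates 1, 2 and 3. Every KO library lay below every WT library, with means of 2767 ± 382 and 1399.8 ± 222 CPM (SD, n = 3 each). The log2 fold change was −0.98 (SE 0.18, edgeR adjusted p = 0.0229). The call was kept without WT replicate 1 (adjusted p = 0.0344) or WT replicate 3 (adjusted p = 0.00414). It was lost without WT replicate 2 (log2 fold change −0.88, adjusted p = 0.115) and without KO replicates 1, 2 or 3 (−0.95, −1.12 and −0.89, adjusted p = 0.0990, 0.0631 and 0.0870). In these fits with 5 libraries the calls over all genes dropped alike, to 0 higher and 1 lower without WT replicate 2 and to 41 and 5, 1 and 1, and 1 and 2 without KO replicates 1, 2 and 3. Without both libraries high in muscle transcripts, Retn stood at −0.79 (adjusted p = 0.302).

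Retnla encodes the resistin-like molecule alpha, a secreted relative of resistin and a marker of alternatively activated macrophages. It spans bases 48842551 to 48844461 of chromosome 16, plus strand. WT replicates 1 and 2 held 1561 and 1367 CPM, and WT replicate 3 held 316 CPM. The KO libraries were close together at 379, 421 and 421 CPM, between WT replicate 3 and the other WT libraries. The log2 fold change was −1.41 (SE 0.51, edgeR adjusted p = 0.126), so that the gene was not called. Without WT replicate 3 it was −1.84 (SE 0.13, adjusted p = 0.000323) and was called, and over the 6 fits without 1 library it ran from −1.84 to −1.04. Retnla had the largest log2 difference of the 10 members, and only Nampt had a larger relative spread within WT (coefficient of variation 62.3% against 61.9%).

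The bases before the start sites of both resistin-family genes are shown because these were the members with the largest log2 differences. They are RefSeq sequences on GRCm38.p6, printed 5′ to 3′ on the gene's strand and ended before the first annotated exon base. Capitals mark matches on either strand to TATAAA, to TTNNGNAA (a C/EBP motif), to AGGTCA (a nuclear receptor half-site) or to a STAT motif (TTC and GAA with 4 bases between), and no match overlaps another.
Retn, chr8:3655520-3655769, plus strand: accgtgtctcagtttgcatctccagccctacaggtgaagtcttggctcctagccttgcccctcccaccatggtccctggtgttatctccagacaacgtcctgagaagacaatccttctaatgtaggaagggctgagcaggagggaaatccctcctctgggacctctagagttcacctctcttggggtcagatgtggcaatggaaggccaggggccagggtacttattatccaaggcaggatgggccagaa
Retnla, chr16:48842359-48842550, plus strand: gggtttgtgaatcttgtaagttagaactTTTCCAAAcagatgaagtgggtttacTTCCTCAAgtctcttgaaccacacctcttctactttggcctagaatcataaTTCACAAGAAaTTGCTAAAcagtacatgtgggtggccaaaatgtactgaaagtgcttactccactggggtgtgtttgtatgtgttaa
The Retnla stretch held 3 matches to the C/EBP motif and 1 to the STAT motif, while the Retn stretch held none of the 4 motifs. The Retnla stretch is 192 bases long, and in the full window of 250 bases that gene also had 1 TATAAA match and 1 half-site match, in the part not printed. Over 32851 RefSeq promoters searched in full windows of 250 bases, 36.8% held the C/EBP motif, 5.85% the STAT motif, 14.02% the half-site and 12.4% the TATAAA motif. Of the members, 8 had a promoter in the RefSeq table.

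Nrg4 encodes neuregulin 4, a ligand of the ERBB4 receptor that is enriched in brown fat and acts on the liver. GENCODE gives it bases 55220222 to 55326844 of chromosome 9, minus strand. Its level was 76.4, 86.3 and 101.7 CPM in WT replicates 1, 2 and 3 and 59.3, 61.0 and 62.8 CPM in KO replicates 1, 2 and 3. All KO libraries lay below all WT libraries, and their coefficient of variation of 2.91% was the smallest of any member in either group. Nrg4 had a log2 fold change of −0.53 (SE 0.13, edgeR adjusted p = 0.0447). Nrg4 was also called without WT replicate 1 (−0.62, adjusted p = 0.0380) and without WT replicate 3 (−0.41, adjusted p = 0.0329). It was not called without WT replicate 2 (−0.54, adjusted p = 0.149), without KO replicates 1, 2 or 3 (adjusted p = 0.148, 0.133 and 0.116), or without both libraries high in muscle transcripts (−0.57, adjusted p = 0.312). Its exons share 368 bases with those of Fbxo22 on the opposite strand, and the kit does not mark strand, so that reads of the pair cannot be told apart there. Fbxo22 itself had 53.6 ± 2.50 CPM in WT and 50.4 ± 2.42 in KO (SD, n = 3 each), a log2 difference of −0.09 (edgeR adjusted p = 0.627).

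The bases before the RefSeq start of Nrg4 are shown as those of the other called member, with capitals as above. This start lies inside the longer GENCODE gene.
Nrg4, chr9:55283626-55283875, minus strand: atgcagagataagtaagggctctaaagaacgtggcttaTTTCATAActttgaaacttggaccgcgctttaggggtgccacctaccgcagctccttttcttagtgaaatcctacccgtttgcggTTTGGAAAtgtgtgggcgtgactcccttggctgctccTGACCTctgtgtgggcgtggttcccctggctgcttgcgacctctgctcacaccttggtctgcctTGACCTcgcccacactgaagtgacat
The stretch held 2 matches to the C/EBP motif and 2 to the half-site, the latter as TGACCT on the printed strand. A match is a string of letters and shows no binding.

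Adipoq encodes adiponectin, the most abundant hormone of fat cells, which raises insulin sensitivity. It spans bases 23146536 to 23158028 of chromosome 16, plus strand. Its level was 4922, 5770 and 4257 CPM in WT replicates 1, 2 and 3 and 4245, 3982 and 3535 CPM in KO replicates 1, 2 and 3. The groups did not overlap, but WT replicate 3 and KO replicate 1 were nearly equal. Its log2 fold change was −0.35 (SE 0.18, edgeR adjusted p = 0.240), with a range of −0.44 to −0.23 over the fits without 1 library. Adipoq was between the 10th and the 14th most counted gene in every library.

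Lep encodes leptin, which signals fat stores to the hypothalamus and restrains feeding. It spans bases 29060220 to 29073877 of chromosome 6, plus strand. Its level was 3949.7 and 3712 CPM in WT replicates 1 and 2 but 1597 CPM in WT replicate 3, while the KO libraries held 3623, 3857 and 3286 CPM. The KO libraries lay within the WT range and below WT replicate 1. Lep had a log2 fold change of 0.22 (SE 0.31, edgeR adjusted p = 0.686). Its sign rested on WT replicate 3, without which it was −0.089 (SE 0.15, adjusted p = 0.712).

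Rbp4 encodes the carrier of retinol in blood, which is raised in insulin resistance. The gene is at bases 38116629 to 38125281 of chromosome 19, minus strand. Its level was 661, 790 and 442 CPM in WT replicates 1, 2 and 3 and 490.3, 538 and 418 CPM in KO replicates 1, 2 and 3. The KO values lay below WT replicates 1 and 2 and around WT replicate 3. The log2 fold change of −0.39 (SE 0.21, edgeR adjusted p = 0.274) was not called. Without WT replicate 3 it was −0.58 (SE 0.15, adjusted p = 0.0237) and was called.

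Nampt encodes nicotinamide phosphoribosyltransferase, the rate-limiting enzyme of NAD salvage, whose secreted form is also known as visfatin. The gene is at bases 32819545 to 32853349 of chromosome 12, plus strand. Its level was 46.0 and 56.6 CPM in WT replicates 1 and 2, 137 CPM in WT replicate 3 and 83.5, 94.5 and 97.4 CPM in KO replicates 1, 2 and 3. The KO libraries thus lay above WT replicates 1 and 2 and below WT replicate 3, which was 2.67 times the mean of the other WT libraries. The log2 fold change was 0.20 (SE 0.38, edgeR adjusted p = 0.772). Without WT replicate 3 it was 0.85 (SE 0.13, adjusted p = 0.00493) and was called, and without WT replicate 1 it was −0.073 (adjusted p = 0.916).

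Angptl4 encodes a secreted inhibitor of lipoprotein lipase that rises in fasting. The gene is at bases 33773750 to 33781830 of chromosome 17, minus strand. It was at 1015, 1493 and 1258 CPM in WT replicates 1, 2 and 3 and at 1204, 1320.1 and 1249.7 CPM in KO replicates 1, 2 and 3. The means of 1255 ± 239 and 1258 ± 58.5 CPM (SD, n = 3 each) differed by less than the spread of either group (edgeR adjusted p = 0.993). Rarres2 encodes chemerin, a chemoattractant of leukocytes that also acts on fat cells. The gene is at bases 48569696 to 48572789 of chromosome 6, minus strand. It was at 463, 543 and 378 CPM in WT and 469, 456 and 339 CPM in KO (log2 fold change −0.13, SE 0.18, edgeR adjusted p = 0.686). The groups overlapped, and replicate 3 was lowest in each. Exons of Rarres2 share 892 bases with those of Lrrc61 on the opposite strand. Apln encodes apelin, a peptide that acts on vessels and heart. The gene is at bases 48025146 to 48034853 of chromosome X, minus strand. It was at 57.1, 48.4 and 47.1 CPM in WT and 57.7, 46.0 and 60.4 CPM in KO (log2 fold change 0.10, SE 0.14, edgeR adjusted p = 0.672). These groups overlapped as well. A miss of the threshold does not show that these levels were equal.

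The coefficient of variation was larger in WT for 8 of the 10 members, with medians of 18.5% in WT and 8.58% in KO. Over all tested genes it was larger in WT for 64.6%, with medians of 15.8% and 11.9%. Retn and Apln were the members with the larger value in KO. Without WT replicate 3 (a choice made after seeing the data) the value was larger in WT for 6 members and the WT median was 11.2%. That WT value comes from fewer libraries than the KO value. Leaving out a library already seen to stand apart tends to lower the spread, so this comparison cannot show what the difference rested on.

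**Figure D2:**
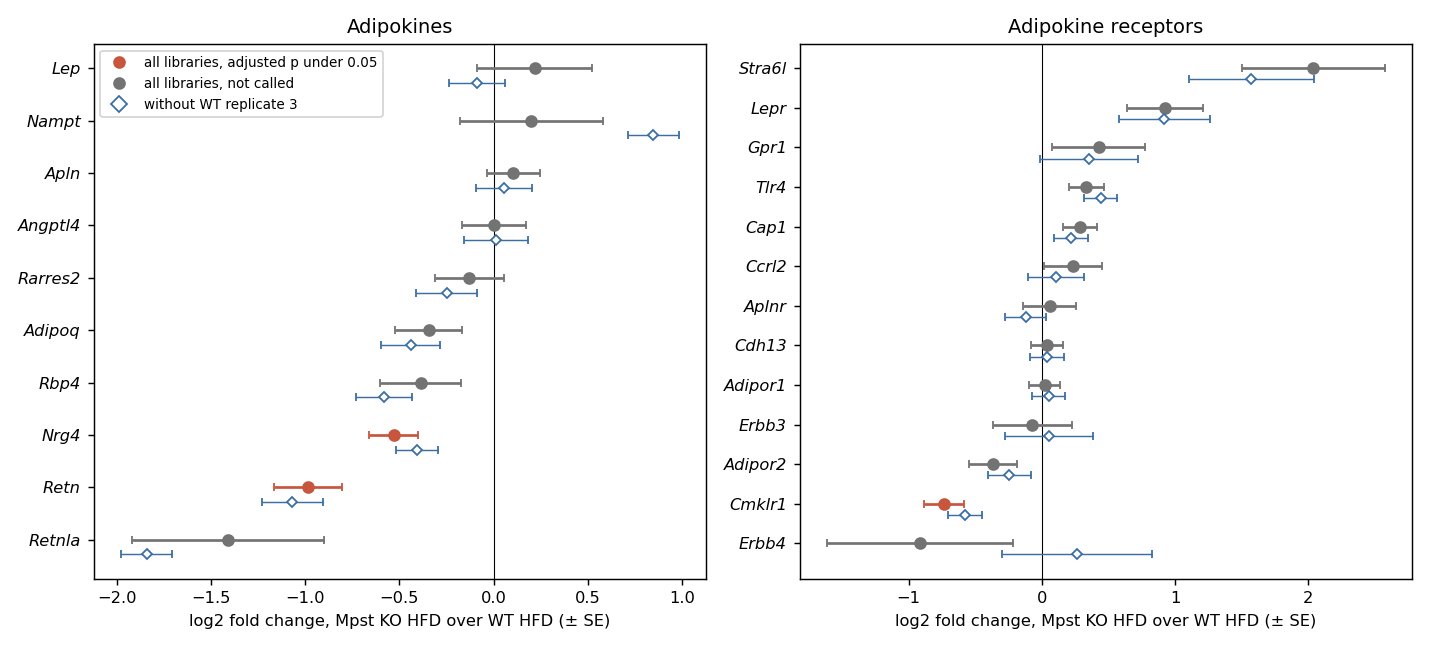
Log2 fold changes of KO over WT (± SE) for the 10 adipokines and 13 tested receptors, with all 6 libraries (circles, red where the adjusted p is under 0.05) and without WT replicate 3 (open diamonds). Retn, Nrg4 and the receptor Cmklr1 are called with all libraries, and Retnla and Nampt move away from 0 without WT replicate 3.

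Among the receptors of these hormones, a receptor of chemerin was called lower. Of all tested genes 7.41% were called in either direction, the share to set beside the counts of this list and of those below. Of 13 tested receptor and binding-protein genes, edgeR called 1 lower and 0 higher, while Stra6 had too few counts to be tested. The median log2 fold change was 0.06, with 9 above 0 and 4 below. At an unadjusted p under 0.05 there were 4 higher and 1 lower, and DESeq2 called 1 higher (Stra6l) and 1 lower. The gene that fell was Cmklr1, the signalling receptor of chemerin, at 111, 136 and 165 CPM in WT and 81.2, 86.1 and 80.3 CPM in KO (log2 fold change −0.73, SE 0.15, edgeR adjusted p = 0.0303). Its KO libraries lay below every WT library. The other chemerin receptors did not pass, Gpr1 at 0.43 (adjusted p = 0.468) and Ccrl2, which binds chemerin without signalling, at 0.23 (adjusted p = 0.527). The adiponectin receptors Adipor1 and Adipor2 had log2 fold changes of 0.02 (adjusted p = 0.929) and −0.37 (adjusted p = 0.217), and Cdh13, the T-cadherin that binds adiponectin, 0.04 (adjusted p = 0.866). The leptin receptor Lepr was scarce, at 1.10, 0.973 and 1.02 CPM in WT and 1.79, 1.94 and 2.12 CPM in KO (log2 fold change 0.92, adjusted p = 0.0786). All KO libraries exceeded all WT libraries for Lepr, yet the gene was not called. The same held for Stra6l, a receptor of RBP4, at 0.139 to 0.674 CPM in WT and 1.23 to 2.46 CPM in KO (2.04, adjusted p = 0.0537). Stra6l was called by DESeq2 (adjusted p = 0.0197), by edgeR without a filter on low counts (adjusted p = 0.0447), with the replicate block (adjusted p = 0.0217) and with adipocyte-marker scaling (adjusted p = 0.0251). It was also called without WT replicate 3 (1.57, adjusted p = 0.0418), as was Tlr4, a lipopolysaccharide receptor that resistin is reported to bind (0.33, adjusted p = 0.133 with all libraries, and 0.44, adjusted p = 0.0340). Cap1, another binding partner of resistin, stood at 0.29 (adjusted p = 0.180) and the apelin receptor Aplnr at 0.06 (adjusted p = 0.878). The neuregulin receptors Erbb3 and Erbb4 were at 1.91 to 3.40 and 0.440 to 3.39 CPM, and neither passed (−0.07 and −0.91, adjusted p = 0.898 and 0.431). Without WT replicate 3, the highest library for Erbb4, that gene stood at 0.26. Cmklr1 lost its call in the same 4 fits with 5 libraries as Retn and Nrg4 did, and with libraries scaled on adipocyte markers (−0.31, adjusted p = 0.245). With that scaling Lepr (1.31, edgeR adjusted p = 0.0317) and Tlr4 (0.74, adjusted p = 0.0264) were called higher, as was Stra6l. The same scaling moved the median of all tested genes to 0.39.

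Of 14 tested partners and processing enzymes of the adipokines, 2 rose and 1 fell, with a median of −0.01. Gstk1, also known as DsbA-L and required for adiponectin multimers, fell from 110.5 ± 8.50 to 64.1 ± 6.76 CPM (log2 fold change −0.79, edgeR adjusted p = 0.0156). With libraries scaled on adipocyte markers Gstk1 stood at −0.39 (adjusted p = 0.199). The cathepsins Ctss and Ctsk, proteases that can process chemerin and are abundant in macrophages, rose by 1.83 (adjusted p = 0.0225) and 0.89 (adjusted p = 0.0274) on the log2 scale. Lpl, the lipase that ANGPTL4 inhibits, which was picked for this role and not by the naming rule, had 14523 ± 3692 CPM in WT and 15346 ± 1961 in KO (0.08, adjusted p = 0.854). Of 16 tested genes of NAD metabolism around Nampt, 1 rose and 1 fell, with a median of −0.04. Bst1, an NAD-consuming ectoenzyme, rose from 1.54 ± 0.265 to 4.65 ± 1.18 CPM (1.62, adjusted p = 0.0212), and Naprt, which makes NAD from nicotinic acid, fell from 24.4 ± 5.03 to 14.6 ± 2.26 CPM (−0.76, adjusted p = 0.0438).

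Among 17 tested transcription factors that act on adipokine genes, 2 rose and 0 fell by both edgeR and DESeq2, with a median of −0.17. Hif1a, the hypoxia-inducible factor, rose from 38.3 ± 11.02 to 100.9 ± 12.4 CPM (log2 fold change 1.40, edgeR adjusted p = 0.0149) and Klf4 from 32.8 ± 0.723 to 50.2 ± 3.82 CPM (0.61, adjusted p = 0.0225). Hif1a and the Ctss and Bst1 named above are also expressed by macrophages. Of 17 hypoxia and fasting targets, 1 rose, Cpt1a, which lets fatty acids into mitochondria (0.76, adjusted p = 0.0237), and 0 fell by edgeR, with a median of 0.06, while DESeq2 called 2 higher and 1 lower.

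Of 39 tested genes for other secreted factors of adipose tissue, 6 rose and 3 fell, with a median of 0.18. The 3 that fell were Cfd, the complement factor adipsin (−2.06, edgeR adjusted p = 0.0144), Vegfb, a vascular growth factor (260.0 ± 32.9 against 138 ± 5.04 CPM, −0.91, adjusted p = 0.0149), and Gpx3, the plasma glutathione peroxidase (730.5 ± 327.8 against 219 ± 16.3 CPM, −1.74, adjusted p = 0.0174). Among the genes that rose, Slit2, a secreted guidance factor, went from 1.80 ± 0.783 to 7.56 ± 1.257 CPM (2.097, adjusted p = 0.0173). Pltp, Cck, Mest and Edn1 rose as well, and these 4 genes and Gpx3 were named after their values were seen. In the families of the members, Angptl1 rose (1.14, adjusted p = 0.0311) among 5 tested angiopoietin-like genes, and none of 8 tested C1q and TNF related genes, relatives of adiponectin, was called by edgeR. Of those, 2 had an unadjusted p under 0.05, C1qtnf3 (1.52, adjusted p = 0.0732) and, named after its values were seen, C1qtnf4 (−1.64, adjusted p = 0.0813), and DESeq2 called 0. Of the resistin-like and neuregulin relatives, 1 was expressed enough to be tested, Nrg2 (−0.05, adjusted p = 0.952), with 0 unadjusted calls. Over these lists and those of markers, 32 genes were called, of which 27 were called without WT replicate 1, 32 without WT replicate 3, 2 (Itgam and Gpnmb) without KO replicate 1 and 0 without WT replicate 2, KO replicate 2 or KO replicate 3. With libraries scaled on adipocyte markers 26 of the 32 were called. The 6 that were not had all fallen, Cmklr1 and Gstk1 as given above, Naprt (−0.34, adjusted p = 0.242), Vegfb (−0.51, adjusted p = 0.0972), Cox8b (−0.61, adjusted p = 0.0766) and Lipe (−0.29, adjusted p = 0.415).

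Cell markers moved in the same libraries, by edgeR's calls unless DESeq2 is named. Of 13 adipocyte markers 1 fell, Lipe (−0.70, edgeR adjusted p = 0.0415), and 0 rose (DESeq2 3 and 0), with 11 of 13 below 0, a median of −0.36 and a sum of 57412 to 66845 CPM in WT and 46592 to 56959 CPM in KO. Of 19 macrophage markers 7 rose, led by Itgam (1.55, adjusted p = 0.0119), Gpnmb (2.485, adjusted p = 0.0119), Cd9 (1.07, adjusted p = 0.0149) and Adgre1 (1.55, adjusted p = 0.0191), and 0 fell, with a median of 0.79 and sums of 668 to 1201 and 1844 to 2008 CPM. Of these markers 15 lay above 0 and 4 below, and at an unadjusted p under 0.05 there were 14 higher and 1 lower. Without WT replicate 3, edgeR called 12 of them higher and 1 lower. Of 14 tested genes of alternative activation, the class that Retnla marks, 1 rose, Mrc1, which is in the macrophage list too (0.88, adjusted p = 0.0335), and 0 fell, with a median of 0.14. Of 13 progenitor and fibroblast markers 3 rose (Dcn, Lum and Col3a1) and 0 fell, with a median of 0.20, while DESeq2 called 4 higher and 1 lower, adding Pdgfra higher and Pi16 lower. Of 8 endothelial markers 1 rose, Vwf (0.40, adjusted p = 0.0467), and 0 fell, with a median of 0.24. Of 9 brown and beige markers 1 fell, Cox8b (−1.02, adjusted p = 0.0244), and 0 rose, with a median of 0.14, while DESeq2 also called Elovl3 higher (adjusted p = 0.0320). Of 17 tested genes of other immune cells, 12 of muscle, 1 of mesothelium and 1 of mammary epithelium, none was called by edgeR. In the immune list 3 had an unadjusted p under 0.05 and DESeq2 called 3, all higher, and in the other lists both counts were 0. The smallest p in these lists belonged to Nkg7 of cytotoxic lymphocytes (1.05, adjusted p = 0.0729), Myh2 of muscle (0.67, adjusted p = 0.360), Krt19 (0.46, adjusted p = 0.561) and Cdh1 (0.69, adjusted p = 0.292).

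Set against the adipocyte transcripts of the same library, the KO minus WT differences of Retn and Nrg4 were smaller. The mean log2 CPM of the 11 adipocyte markers was itself lower in KO. It was 8.99, 9.27 and 9.60 in WT replicates 1, 2 and 3 and 8.76 to 8.97 in KO, a difference of −0.43. Dividing by this mean raises the difference of every gene by the same amount, so the smaller falls of Retn and Nrg4 follow from it. The part of these markers in the fall of both genes was not tested beyond the ratios given here. The log2 ratio of Retn to the mean of 11 adipocyte markers was 2.43, 2.36 and 1.63 in WT replicates 1, 2 and 3 and 1.61, 1.85 and 1.28 in KO replicates 1, 2 and 3. The groups overlapped, at WT replicate 3 and KO replicate 2, and differed by −0.56 (exact permutation test over the 6 libraries, two-sided, p = 0.2). Without WT replicate 3, the library with the highest adipocyte marker mean, they did not overlap and differed by −0.81. For Nrg4 the ratio differed by −0.09 (exact permutation p = 0.3), from −2.73, −2.84 and −2.94 in WT to −2.87, −2.91 and −3.00 in KO. Without WT replicate 3 the Nrg4 groups did not overlap and differed by −0.14. That library held the lowest WT ratio of both Retn and Nrg4. Leaving it out was therefore bound to widen both differences, so these values lend them no weight. Nampt and Angptl4 were higher relative to these markers in all KO libraries, by 0.80 and 0.45 (exact permutation p = 0.1 each). That is the smallest p that 3 against 3 libraries can give, so no such ratio could pass 0.05. Without division by the markers, the edgeR log2 fold changes of Nampt and Angptl4 were 0.20 and 0.0029. These follow the mean counts of a group, while the ratios compare means of log2 CPM. The gap between both sets of values is thus not the effect of the markers alone. The difference for Adipoq was 0.09, for Rbp4 0.08, for Rarres2 0.30, for Apln 0.53, for Lep 0.75 and for Retnla −0.68, with overlapping groups for each. Each of these values was lower without WT replicate 3. Adipoq then stood at −0.18, Rbp4 at −0.32, Rarres2 at 0.0060, Apln at 0.32, Lep at 0.17 and Retnla at −1.58. For Apln the difference rose as high as 0.77 with another library left out. The median ratio of the 10 members in each library differed by −0.17 between the groups, and this difference ran from −0.72 to 0.12 with each library left out. That median follows the genes in the middle of the order of levels, which were not the same in every library. It is thus no measure of how the members moved. Of the single differences given above, those of Retn, Nrg4 and Retnla lay below 0 and those of all other members above 0.

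When the libraries were scaled on these 11 markers in the fit across all genes, the median of all tested genes moved to 0.39 and 0 members were called. Retn then stood at −0.61 (SE 0.29, edgeR adjusted p = 0.156) and Nrg4 at −0.12 (SE 0.18, adjusted p = 0.649). Against 19 macrophage markers, Retnla had log2 ratios of 5.65, 5.57 and 4.08 in WT replicates 1, 2 and 3 and 3.12, 3.10 and 3.19 in KO replicates 1, 2 and 3. Here WT replicate 3 also lay above every KO library, although its Retnla level of 316 CPM lay below their 379 to 421 CPM. The macrophage marker mean (log2 CPM) was 4.96, 4.85 and 4.23 in WT replicates 1, 2 and 3 and 5.44 to 5.62 in KO. That mean differed by 0.85 between the groups, which is part of the difference in the ratio. The ratio differed by −1.96 between the groups (exact permutation p = 0.1). With each marker left out in turn this difference ran from −2.06 to −1.87, and with each library left out from −2.47 to −1.68.

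**Figure D3:**
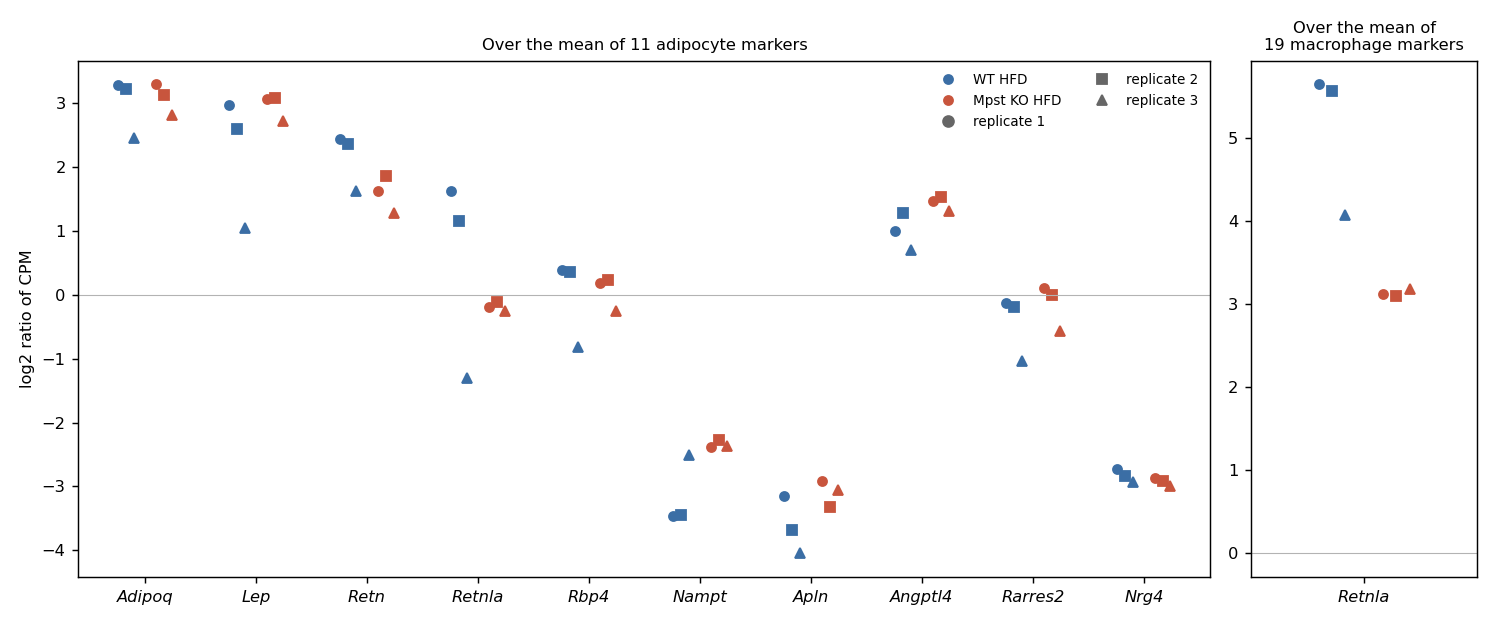
Log2 ratio of each adipokine's CPM to the mean of 11 adipocyte markers (left) and of Retnla to the mean of 19 macrophage markers (right), by library, with colour giving the genotype and shape the replicate. Nrg4 ratios lie close together in all 6 libraries, and the Retnla ratio to macrophage markers is lower in all KO libraries, at 3.10 to 3.19 against 4.08 to 5.65.

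Levels were compared between genes per kilobase of annotated exon, a rough measure. Each length joined all GENCODE exons of a gene (6075 bases for Nrg4), while the annotation behind the counts is not given. Nrg4 and Rarres2 also share exon bases with genes on the opposite strand, so their levels may be understated. On this measure Adipoq led in both genotypes, at 3608 ± 549 CPM per kilobase in WT and 2839 ± 259.8 in KO (SD, n = 3 each). In WT it was followed by Retnla (1805 ± 1118), Retn (1753 ± 242), Lep (920.1 ± 386), Rbp4 (469.7 ± 131), Angptl4 (355 ± 67.5) and Rarres2 (174 ± 31.1). In KO the order was Lep (1069.9 ± 85.6), Retn (887 ± 141), Retnla (679 ± 40.4), Rbp4 (359 ± 45.0), Angptl4 (355 ± 16.5) and Rarres2 (159 ± 26.9). By these means Retnla stood in the second place in WT and in the fourth in KO. Its WT libraries ran from 528 (WT replicate 3) to 2606 CPM per kilobase. They overlapped those of Lep (476 to 1178) and Rbp4 (329 to 588) as well as those of Retn, so its place in WT is uncertain. Apln, Nampt and Nrg4 were the lowest in both, at 14.5 to 16.1 CPM per kilobase in WT and 10.05 to 18.2 in KO. Neighbours whose libraries overlapped were Retnla and Retn, Lep and Rbp4, Rbp4 and Angptl4, Apln and Nampt, and Nampt and Nrg4 in WT, and Lep and Retn, Rbp4 and Angptl4, and Nampt and Apln in KO. The 10 genes took 1.09% to 1.57% of all counts in a WT library and 1.17% to 1.257% in a KO library.

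**Figure D4:**
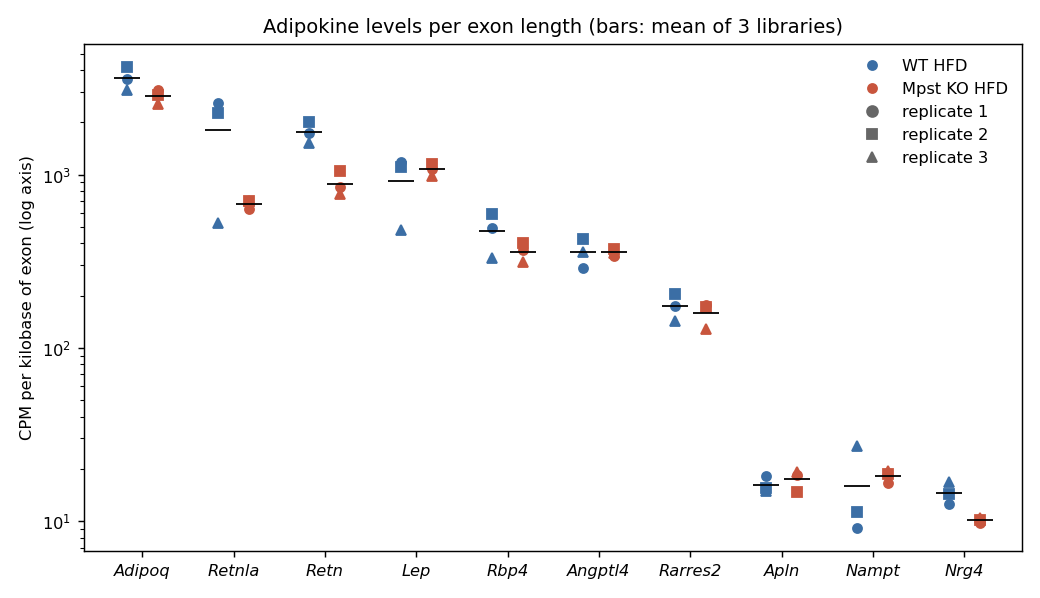
Level of each adipokine in CPM per kilobase of annotated exon (log axis) in 3 WT (blue) and 3 KO (red) libraries, with bars at the mean. Adipoq is highest in both genotypes, and Apln, Nampt and Nrg4 are lowest.

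The genes whose log2 CPM followed a called member most closely over the 6 libraries were Mettl23 (Pearson r 0.997), Glrx2 (0.996) and Naxe (0.996) for Retn and Ctdsp1 (0.999), Clk3 (0.998) and Catsper2 (0.996) for Nrg4. They were taken from 10947 genes with a mean of at least 5 CPM. The libraries share depth and normalisation between genes, and with 6 points among so many genes such values are a description only.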

How the data were processed

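RNA was sequenced from inguinal white adipose tissue of 3 WT and 3 Mpst KO samples. Per the labels' protocols, libraries were made with an Illumina TruSeq kit, which does not mark strand, and read single-end. The submitters' processing notes name HISAT2 2.1.0, HTSeq 0.13.5, DESeq2 1.26 and mm10, and the sources used here give neither annotation nor counter settings. Each deposited file holds raw counts per gene symbol, 1 file per library. The lines of the counter for reads in no feature (8.85% to 14.7% of gene, no-feature and ambiguous reads together) and ambiguous reads (1.63% to 1.83%) were left out.

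The fit to the counts used edgeR 4.0.16 under R 4.3.3 (filterByExpr, trimmed mean of M-values, robust quasi-likelihood F test, genotype alone, Benjamini-Hochberg over 14065 genes, calls under 0.05). The test was checked on simulated data. CPM and ratios were computed from the counts, and exon lengths were taken from GENCODE M21 (GRCm38). Replicates differed by more than sampling noise, so none was counted as a copy. Members and lists were chosen with earlier results of these data known. Named genes were all members, receptors tested, and from each list up to 4 called genes with the smallest p, or the 1 with the smallest p, and 1 gene that this rule names is not reported here. Alternatives were other scalings, DESeq2 1.42.0, limma 3.58.1 voom, other filters, a replicate block, a fit without robust estimation, each library left out and, added after seeing the data, both muscle-high libraries left out.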

Additional observations from a re-analysis of the deposited data

How the results depend on the processing

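Calls depended most on which libraries were in the fit. Genes called higher and lower numbered 669 and 373, against 1024 and 872 with DESeq2 (54.0% higher, against 64.2%), and 0 to 1434 and 1 to 1167 with each library left out. Members called lower numbered 0 to 4 and higher 0 to 1 in those fits, and without both muscle-high libraries 0 genes were called higher, 1 lower and 0 members lower. Retn and Nrg4 kept their calls in 8 of 9 other fits to all libraries, which changed the scaling, tool, filter or block. In the other, with libraries scaled on adipocyte markers 0 members were called lower, and Adipoq stood at 0.028 and Rarres2 at 0.24. Angptl4 stood at −0.011 with RLE size factors and −0.013 with DESeq2. Without the muscle-high libraries Nampt stood at −0.042, Apln at −0.010 and Rarres2 at 0.14. With each library left out Lep ran from −0.089 to 0.44, Nampt from −0.073 to 0.85, Angptl4 from −0.12 to 0.15 and Rarres2 from −0.25 to 0.0045. Without division by length 4 of the 10 members kept their place in the WT order. The cause of these shifts was not tested.

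Same-numbered replicates did not deviate together in every pair (r = 0.17, −0.099 and 0.30 for numbers 1, 2 and 3), so the numbers were not taken as pairs. With the replicate number as a block 1387 genes were called higher and 1289 lower (51.8% higher), and the members called stayed at 2 lower and 0 higher. WT replicate 1 correlated best with KO replicate 2 (r = 0.36), so a sample did not always match its own number best. KO replicate 1, with the fewest counts, limits the precision of genes as scarce as Lepr and Erbb4.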
